A study of Homo sapiens with 44 samples.

Results

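The genes described here are 9 growth factor receptors and co-receptors of neural crest cells, namely ALK, RET, GFRA2, GFRA3, NGFR, NTRK2, NTRK3, IGF1R and KIT. They were taken by symbol from the count tables, where all 9 were found among 19923 protein-coding genes. The study treated human neuroblastoma cells with STM2457, a small-molecule inhibitor of METTL3, the enzyme that writes N6-methyladenosine (m6A) on mRNA. Both cell lines used, Kelly and NGP, derive from neuroblastoma with an amplified MYCN gene and are labelled wild type. Mutations in the receptor genes of either line, ALK included, were not examined here. Both were grown with 8 µM STM2457 or with the solvent DMSO, Kelly for 1 day and for 6 days and NGP for 6 days. Kelly cells were also grown under the skin of nude mice, which then received 50 mg/kg STM2457 or vehicle into the peritoneum each day for 14 days. The vehicle group is named DMSO here, as in the sample titles. From each condition came input libraries, which are RNA-seq of sheared poly(A) RNA, and RIP libraries of the fragments that an m6A antibody pulled down. Each of the 16 groups held 3 libraries, or 2 in the xenograft, for 44 libraries in all. Each line is 1 genetic background, and the nude host keeps its own mouse stroma. Counts were made over human genes, and no label or file header used here tells whether mouse reads were removed first. The part of mouse reads in the xenograft values was not tested. Nothing in the labels says that the replicates were separate cultures or animals, so a p-value measures the spread between these libraries, which may be technical.

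Receptor tyrosine kinases pair up when a ligand binds and then phosphorylate one another, which recruits adaptors such as SHC1 and starts the RAS to ERK and the PI3K to AKT cascades. ALK is the receptor most often mutated in neuroblastoma. RET binds ligands of the GDNF family only through a lipid-anchored GFRA co-receptor, GFRA2 favouring neurturin and GFRA3 favouring artemin. NTRK2 and NTRK3 are the receptors of BDNF and of neurotrophin-3, and NGFR (p75) is the low-affinity receptor that all neurotrophins share. IGF1R transmits signals of the insulin-like growth factors, and KIT is the receptor of stem cell factor. METTL3 methylates adenosines within a short consensus, of which GGACT in DNA letters is the most favoured form, mostly in long internal exons and near the stop codon, and exon junctions are known to keep the methylation machinery away.

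Levels are given in CPM, the usual scaling of a gene's count to a fixed library size. Library totals, in M (mega) fragments over inputs and pulldowns, were 24.1 to 36.5 for Kelly at 1 day, 5.77 to 31.5 for Kelly at 6 days, 5.49 to 24.1 for NGP and 2.15 to 11.8 for the xenograft, so the xenograft gives the least precise values. Of 10 markers of adrenergic neuroblastoma cells, 9 or 10 were at 1 CPM or more in every group. CHGA was the highest in each, at 2903 to 22970 CPM. In NGP TH read only 0.870 CPM in DMSO and 2.95 CPM in STM2457, and DBH 117 and 165 CPM. The Kelly culture and xenograft groups held TH at 516 to 1779 CPM and DBH at 1331 to 3064 CPM. Schwann cell or melanocyte markers, 7 of 8 found, summed to 5.23 to 35.5 CPM over the input libraries, with PMP22 the highest in the culture groups at 15.6 to 30.7 CPM and CDH19 at 0 in every group. Of 6 blood, mast cell and macrophage markers, CPA3, a marker of the mast cells that also carry KIT, was at 0 in every input group. TPSAB1, another mast cell marker, reached 0.272 CPM in NGP in DMSO and 0.0698 CPM in Kelly at 6 days with STM2457. CD68 was the highest of these markers, with group means of 3.19 to 10.6 CPM. The endothelial marker VWF read 15.4 CPM in vehicle tumours, 10.9 CPM in treated tumours and 2.04 CPM or less in the culture groups. A gene is called changed at a Benjamini-Hochberg adjusted p under 0.05 in edgeR's quasi-likelihood test over all genes. A log2 value is printed only where every group in the comparison averaged at least 10 counts.

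The consensus GGACT was searched on the mRNA strand of 1 canonical transcript per gene (GENCODE 44, GRCh38). All 9 receptor mRNAs held it, as did 91.7% of the mRNAs of all genes tested. Windows of 61 bases around 1 coding match are shown for 3 receptor kinases whose pulldown values are given below, of which RET was depleted in the m6A fraction and ALK and IGF1R were enriched in Kelly cells. The matches lie in exon 6 of 29 of ALK (chr2:29328355-29328415, minus strand), exon 19 of 20 of RET (chr10:43126630-43126690, plus strand) and exon 8 of 21 of IGF1R (chr15:98913147-98913207, plus strand), each inside the coding sequence. Capitals mark the match, and 6.09% of all coding windows of this length held at least 1.
ALK: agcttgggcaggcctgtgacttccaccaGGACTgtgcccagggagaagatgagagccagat
RET: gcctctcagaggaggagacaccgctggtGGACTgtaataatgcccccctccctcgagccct
IGF1R: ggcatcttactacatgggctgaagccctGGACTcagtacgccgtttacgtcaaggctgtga
The RET match shown lies 215 bases before the end of the coding sequence, against 3479 bases for ALK and 2376 bases for IGF1R. Each is the last match with 28 coding bases of the same exon on either side, so the distances depend on that rule. Coding exons held 6 matches in ALK, 4 in RET and 6 in IGF1R. A match is a sequence, not a measured m6A site. The related kinases NTRK2 and NTRK3 share a match in the stretch that encodes the activation segment of the kinase domain, in exon 17 of 19 and exon 17 of 20.
NTRK2: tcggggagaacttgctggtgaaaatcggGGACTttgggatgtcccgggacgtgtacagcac
NTRK3: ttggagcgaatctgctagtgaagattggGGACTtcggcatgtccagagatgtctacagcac
These 2 windows are at chr9:84955444-84955504 (plus strand) and chr15:87929204-87929264 (minus strand).

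In untreated cells RET, ALK, GFRA2 and IGF1R were expressed in both lines, NGFR mainly in NGP, GFRA3 in Kelly and KIT in NGP. Per kilobase of exon, which makes genes comparable, the highest DMSO level in Kelly at 6 days was that of RET, at 14.3 ± 0.767 CPM per kb (SD, n = 3). ALK followed at 9.40 ± 0.592, GFRA2 at 8.25 ± 0.251, GFRA3 at 6.10 ± 0.798 and NGFR at 5.21 ± 0.573 CPM per kb. IGF1R was lower, at 1.15 ± 0.0662 CPM per kb over a long annotated 3′ end, and the neurotrophin receptors NTRK2 and NTRK3 stood at 0.0472 and 0.0448 CPM per kb. In NGP the order was different: NGFR led with 65.0 ± 6.04 CPM per kb, ahead of ALK at 13.1 ± 2.18, RET at 8.52 ± 2.24 and GFRA2 at 7.95 ± 0.655 CPM per kb. The values of GFRA3 and NGFR overlapped in Kelly, as did those of RET and GFRA2 in NGP. The xenograft vehicle tumours held RET at 11.4 ± 3.84, GFRA2 at 10.97 ± 0.0354, GFRA3 at 10.2 ± 2.82, ALK at 6.33 ± 0.448, NGFR at 2.99 ± 0.656 and IGF1R at 2.41 ± 0.0785 CPM per kb (SD, n = 2).

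The lines were compared at 6 days in DMSO, as Kelly over NGP. Of 8 receptors tested, 5 differed, 2 higher and 3 lower in Kelly, beside 60.8% of all genes tested, of which 31.7% higher and 29.1% lower. RET was higher in Kelly by 0.94 log2 (SE 0.155, edgeR adjusted p = 0.000421), and NGFR was lower in Kelly by a log2 difference of -3.45 (SE 0.126, edgeR adjusted p = 1.01e-08). IGF1R was also lower in Kelly, at -1.74 log2 (SE 0.127, edgeR adjusted p = 1.26e-06). KIT had 0 counts in all Kelly inputs at 6 days against 14.6, 6.63 and 12.1 CPM in NGP, which makes it at least 45.9-fold higher in NGP against a floor of 3 counts per library. GFRA3 was the reverse, at 13.7, 10.5 and 12.2 CPM in Kelly and with counts of 0, 2 and 0 in NGP. ALK (-0.28 log2, edgeR adjusted p = 0.0532) and GFRA2 (0.25 log2, edgeR adjusted p = 0.0717) did not pass the threshold, although without NGP DMSO replicate 3 both did, at -0.38 and 0.30 log2, and ALK also did without NGP DMSO replicate 2 (-0.33 log2) and with a replicate block (-0.27 log2). The labels give no batch, and any batch difference between the lines cannot be told apart from the line.

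RET, the GDNF family receptor kinase, rose with STM2457 in each of the 3 culture experiments. At 1 day in Kelly it read 332, 328 and 322 CPM in DMSO and 411, 396 and 415 CPM in STM2457. At 6 days in Kelly it read 101, 92.5 and 102 CPM in DMSO and 227, 237 and 266 CPM in STM2457. In NGP the values were 69.8, 41.0 and 65.0 CPM in DMSO and 266, 238 and 237 CPM in STM2457. Every treated library was above every control library in each of these experiments, as for 20.8%, 29.7% and 15.1% of all genes tested. The changes were 0.29 log2 at 1 day (SE 0.0433, edgeR adjusted p = 0.000184), 1.19 log2 at 6 days (SE 0.0707, edgeR adjusted p = 8.07e-09) and 2.00 log2 in NGP (SE 0.175, edgeR adjusted p = 7.55e-08). The change at 1 day was not called when all inputs were fitted together (0.28 log2). RET was the only one of 8 receptors tested to change at 1 day, beside 17.5% of all genes tested, 9.41% higher and 8.06% lower. Called rises of at least 2-fold, such as that of RET at 6 days, made up 0.744% of all genes tested in Kelly and 0.928% in NGP.

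The xenograft RET values went the other way, at 59.8 and 97.1 CPM in vehicle and 34.2 and 34.5 CPM in STM2457. Both treated libraries lay below both controls, as in 27.7% of all genes tested, and the change of -1.06 log2 (SE 0.349) was not called (edgeR adjusted p = 0.532). It was called when all inputs were fitted together (-1.10 log2), without STM2457 replicate 1 (-1.05 log2) and without STM2457 replicate 2 (-1.09 log2). In a tumour, fewer cells of a type and less RNA per cell cannot be told apart.

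GFRA2, the co-receptor that presents neurturin to RET, moved with RET in the 6 day cultures. It read 46.6, 49.3 and 47.1 CPM in DMSO and 122, 134 and 132 CPM in STM2457 in Kelly at 6 days. In NGP it read 46.1, 42.1 and 49.6 CPM in DMSO and 194, 168 and 183 CPM in STM2457. Every treated library was above every control library in both lines, as for 29.7% of all genes tested in Kelly and 15.1% in NGP. The rises were 1.33 log2 in Kelly (SE 0.0676, edgeR adjusted p = 1.41e-09) and 1.91 log2 in NGP (SE 0.160, edgeR adjusted p = 5.73e-08). At 1 day its levels were 157, 157 and 152 CPM in DMSO and 172, 169 and 170 CPM in STM2457, a difference of 0.11 log2 that was not called (edgeR adjusted p = 0.127). In the xenograft it read 63.3 and 63.5 CPM in vehicle and 66.5 and 85.3 CPM in STM2457, and its value of 0.38 log2 (SE 0.285) was not called (edgeR adjusted p = 0.766).

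The artemin co-receptor GFRA3 was not called in any experiment. In Kelly at 6 days it read 13.7, 10.5 and 12.2 CPM in DMSO and 14.4, 15.8 and 15.3 CPM in STM2457, at 0.21 log2 (SE 0.137, edgeR adjusted p = 0.274). Its level was 1.06 to 2.16 CPM in Kelly at 1 day over both treatments and highest in the xenograft, at 16.3 and 24.2 CPM in vehicle and 27.3 and 27.0 CPM in STM2457. It was lowest in NGP, with counts of 0, 2 and 0 in DMSO and 0 counts in all 3 inputs with STM2457.

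ALK rose in both 6 day cultures, by less than RET and GFRA2. In Kelly it read 74.4, 66.5 and 67.2 CPM in DMSO and 96.3, 86.7 and 104 CPM in STM2457. In NGP it read 115, 90.1 and 85.04 CPM in DMSO and 172, 179 and 152 CPM in STM2457. The rises were 0.35 log2 in Kelly (SE 0.0793, edgeR adjusted p = 0.00389) and 0.72 log2 in NGP (SE 0.158, edgeR adjusted p = 0.00861). The Kelly call was lost when all inputs were fitted together (0.37 log2), and the NGP call without DMSO replicate 3 (0.64 log2) or without STM2457 replicate 1 (0.70 log2). At 1 day ALK read 148 to 155 CPM in DMSO and 146 to 154 CPM in STM2457, with overlapping groups (-0.03 log2, edgeR adjusted p = 0.727). In the xenograft the values were 44.4 and 49.1 CPM in vehicle and 40.1 and 26.1 CPM in STM2457 (-0.37 log2, SE 0.387, edgeR adjusted p = 0.867).

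NGFR, the shared neurotrophin receptor, fell in both 6 day cultures. In NGP, where it was abundant, it read 244, 294 and 269 CPM in DMSO and 188, 171 and 139 CPM in STM2457. The 6 day Kelly inputs read 24.3, 20.2 and 20.3 CPM in DMSO and 12.2, 12.6 and 9.54 CPM in STM2457. All treated libraries lay below all control libraries in both lines, as for 8.53% of all genes tested in NGP and 14.3% in Kelly. The log2 changes were -0.77 in NGP (SE 0.158, edgeR adjusted p = 0.00494) and -0.98 in Kelly (SE 0.135, edgeR adjusted p = 5.73e-05). At 1 day NGFR was at 1.13 to 2.03 CPM over both treatments, from 30 to 49 counts per library, and was not called (0.22 log2, edgeR adjusted p = 0.679). In the xenograft the 2 treated libraries differed from each other more than from the controls, at 2.51 and 21.9 CPM against 10.5 and 14.3 CPM in vehicle. The value of 0.10 log2 has a standard error of 0.975.

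IGF1R rose in Kelly at 6 days, from 16.7, 15.0 and 16.5 CPM in DMSO to 24.0, 24.6 and 26.2 CPM in STM2457 (0.52 log2, SE 0.110, edgeR adjusted p = 0.00241). In NGP it read 60.5, 66.1 and 58.6 CPM in DMSO and 67.6, 75.1 and 63.3 CPM in STM2457, with overlapping groups and 0.08 log2 (SE 0.173, edgeR adjusted p = 0.868). At 1 day in Kelly it read 80.0, 80.0 and 72.0 CPM in DMSO and 83.9, 89.5 and 86.2 CPM in STM2457, which was not called (0.14 log2, edgeR adjusted p = 0.145). The xenograft values were 34.4 and 32.9 CPM in vehicle and 33.9 and 54.6 CPM in STM2457. There 1 treated library stood above the others (0.52 log2, SE 0.402, edgeR adjusted p = 0.777).

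The other receptors were measured with few counts. NTRK2 lay at 1.49 CPM or less in all Kelly cultures and read 3.35, 0.358 and 2.19 CPM in DMSO and 6.81, 4.19 and 6.60 CPM in STM2457 in NGP. That difference of 1.47 log2 (SE 0.662) was not called (edgeR adjusted p = 0.243), with only 2 counts in NGP DMSO replicate 2. NTRK3 ran from 0.648 to 1.96 CPM in the Kelly cultures and was called in none of them. KIT read 14.6, 6.63 and 12.1 CPM in DMSO and 7.07, 20.04 and 16.5 CPM in STM2457 in NGP, with overlapping groups and 0.29 log2 (SE 0.372, edgeR adjusted p = 0.752). It had at most 2 counts in any Kelly input at 1 day and 0 in every Kelly input at 6 days and every xenograft input.

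Across all input groups the order of levels differed by receptor. RET was highest in Kelly at 1 day with STM2457, at 408 CPM, then in Kelly at 1 day in DMSO, at 327 CPM, and in NGP and Kelly at 6 days with STM2457, at 247 and 243 CPM, whose ranges overlapped. The RET ranges of Kelly at 6 days, the xenograft and NGP in DMSO overlapped with the next in that order, and treated tumours were lowest, at 34.3 CPM. GFRA2 was highest in NGP and in Kelly at 1 day with STM2457, at 182 and 170 CPM with overlapping ranges, and lowest in Kelly at 6 days and NGP in DMSO, at 47.6 and 45.9 CPM, which overlapped too. ALK was highest in NGP with STM2457 and in both Kelly 1 day groups, at 151 to 168 CPM with overlapping ranges, and lowest in the xenograft. NGFR ran from 269 CPM in NGP in DMSO to 1.502 CPM in Kelly at 1 day in DMSO, where both 1 day groups overlapped. IGF1R ran from 86.6 CPM in Kelly at 1 day with STM2457 to 16.1 CPM in Kelly at 6 days in DMSO.

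**Figure D1:**
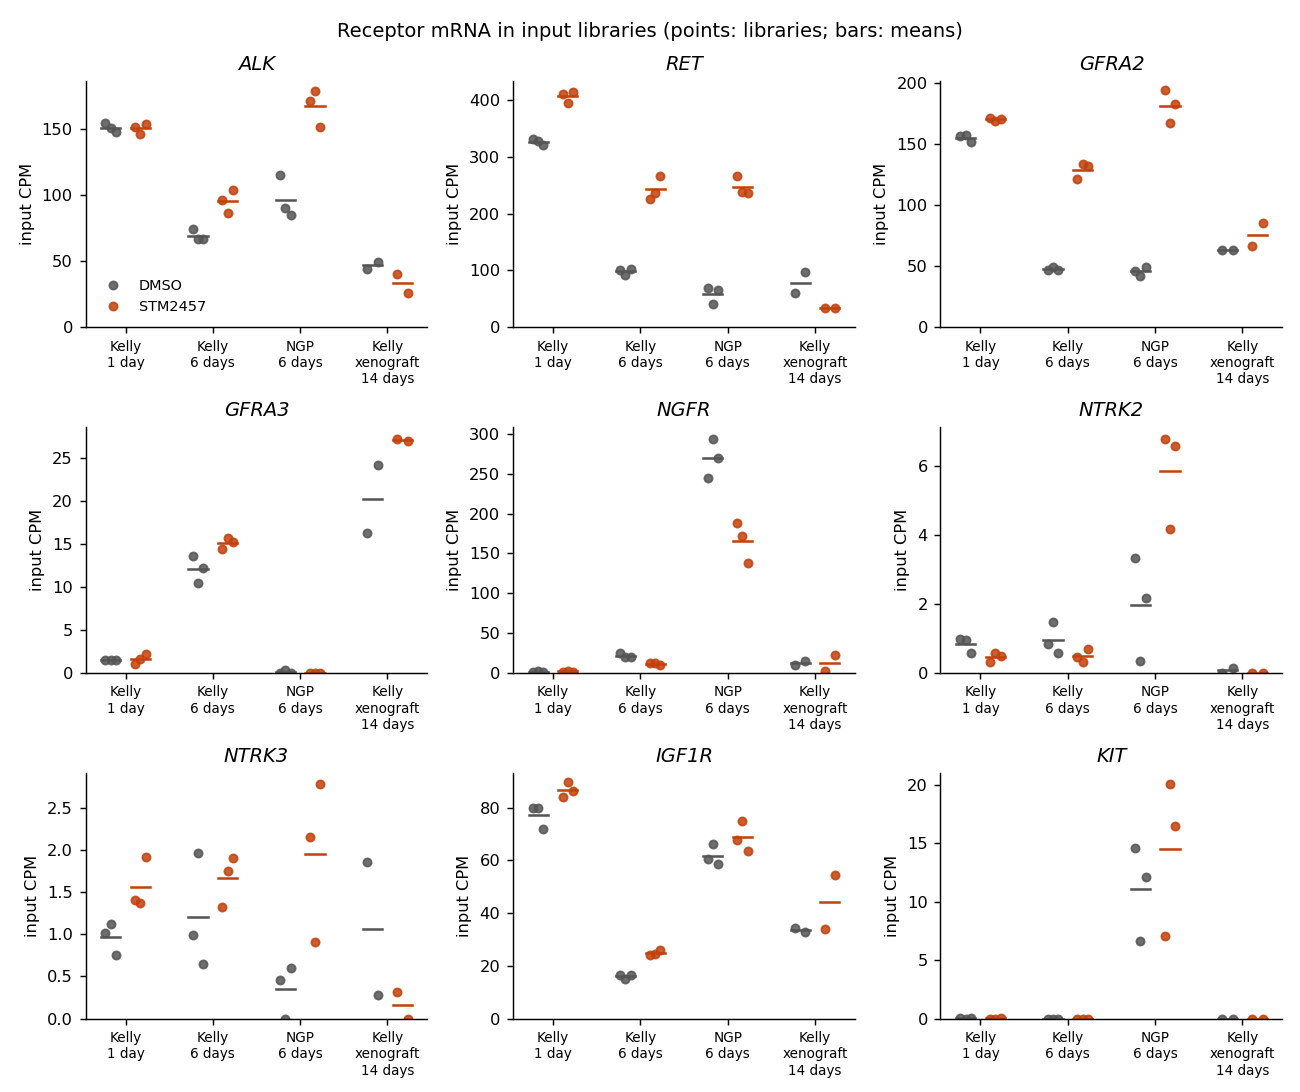
Input level of each receptor in CPM (linear axis from 0, scaled per gene) by experiment, with DMSO or vehicle in grey and STM2457 in orange. Points are libraries and short bars are means. RET and GFRA2 separate by treatment in both 6 day cultures, NGFR is high in NGP and lower with STM2457, and KIT is at or near 0 outside NGP.

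By count, 5 of 7 receptors tested changed in the 6 day Kelly culture, 4 higher and 1 lower, beside 26.6% of all genes tested, 11.9% higher and 14.7% lower. In NGP 4 of 7 changed, 3 higher and 1 lower, beside 4.23% of all genes tested, 2.07% higher and 2.16% lower. The median change of the receptors tested was 0.35 log2 in Kelly at 6 days and 0.72 log2 in NGP, where the medians of all genes tested were 0.00 and 0.01 log2. In the xenograft 0 of 6 receptors and 0% of all 11329 genes tested were called by edgeR, with 968 genes at an unadjusted p under 0.05. DESeq2 called 77 genes there. The receptors were chosen with results of these data known, so these counts describe the 9 genes and no wider group.

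The summed level of markers of mesenchymal neuroblastoma cells or fibroblasts was higher with treatment in NGP. It was 135 to 157 CPM in DMSO and 325 to 365 CPM in STM2457, with 7 of 10 at 1 CPM or more in both groups and YAP1 at 0. VIM made up most of the difference, at 35.7 CPM in DMSO and 175 CPM in STM2457. FN1, at 28.6 and 58.8 CPM, and COL3A1, at 15.9 and 42.65 CPM, were also higher with STM2457. Their groups did not overlap, as for 15.1% of all genes tested, with treated libraries higher. COL1A1 read 41.5 and 42.0 CPM. LUM read 2.11 and 1.09 CPM, with overlapping ranges of 0.298 to 4.30 CPM in DMSO and 0.182 to 1.64 CPM in STM2457. In Kelly at 6 days the same sum was 128 to 135 CPM in DMSO and 129 to 144 CPM in STM2457, with 5 and 6 of 10 markers at 1 CPM or more. Within that sum FN1 was higher with STM2457, at 28.9 to 31.9 CPM in DMSO and 41.2 to 50.7 CPM in STM2457, and COL1A1 lower, at 31.3 to 35.5 and 16.5 to 18.8 CPM. In the xenograft it was 120 to 131 CPM in vehicle and 62.9 to 75.2 CPM in STM2457, with 8 and 5 of 10 at 1 CPM or more and COL1A2 and LUM at 0 in both groups. The part of the cells that carry these markers in the receptor values was not tested in any experiment.

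The size of the response was compared between experiments by the interaction of treatment and experiment. Between 6 days and 1 day in Kelly, 5 of 8 receptors tested differed in response, 4 upward and 1 downward, beside 8.41% of all genes tested, of which 3.67% upward and 4.73% downward. GFRA2 differed by 1.24 log2 (SE 0.0801, edgeR adjusted p = 5.04e-10) and RET by 0.91 log2 (SE 0.0838, edgeR adjusted p = 1.65e-07), both rising more at 6 days. NGFR differed by -1.19 log2 (SE 0.273, edgeR adjusted p = 0.00694) and ALK by 0.39 log2 (SE 0.0940, edgeR adjusted p = 0.00922). IGF1R differed by 0.40 log2 (SE 0.114, edgeR adjusted p = 0.0319), a call that was lost without Kelly 1 day DMSO replicate 1 or 2, without 1 day STM2457 replicate 1 or 3, and with a replicate block. The DMSO levels of the 2 Kelly experiments also differed, RET reading 327 ± 4.88 CPM at 1 day and 98.6 ± 5.28 CPM at 6 days and IGF1R 77.3 ± 4.58 CPM and 16.1 ± 0.926 CPM (SD, n = 3), and any difference in how the 2 experiments were run cannot be told apart from time.

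Between Kelly and NGP at 6 days, 0 of 9 receptors tested differed in response in edgeR, beside 1.36% of all genes tested, with 0.565% upward and 0.796% downward. RET came nearest, at -0.78 log2 for Kelly minus NGP (SE 0.192, edgeR adjusted p = 0.0515, unadjusted p = 0.000716), then GFRA2 at -0.56 log2 (SE 0.146, edgeR adjusted p = 0.0695, unadjusted p = 0.00123). The unadjusted p was also under 0.05 for IGF1R (0.46 log2) and for NTRK2 (unadjusted p = 0.00899), which had too few counts in Kelly for a printed log2. Both RET (-0.81 log2) and GFRA2 (-0.58 log2) were called by DESeq2, RET with RLE size factors (-0.80 log2), without the low-count filter (-0.77 log2) and with a replicate block (-0.81 log2). Leaving out NGP DMSO replicate 1 or 2, or NGP STM2457 replicate 2 or 3, also brought the RET difference past the threshold, at -0.90 to -0.60 log2.

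**Figure D2:**
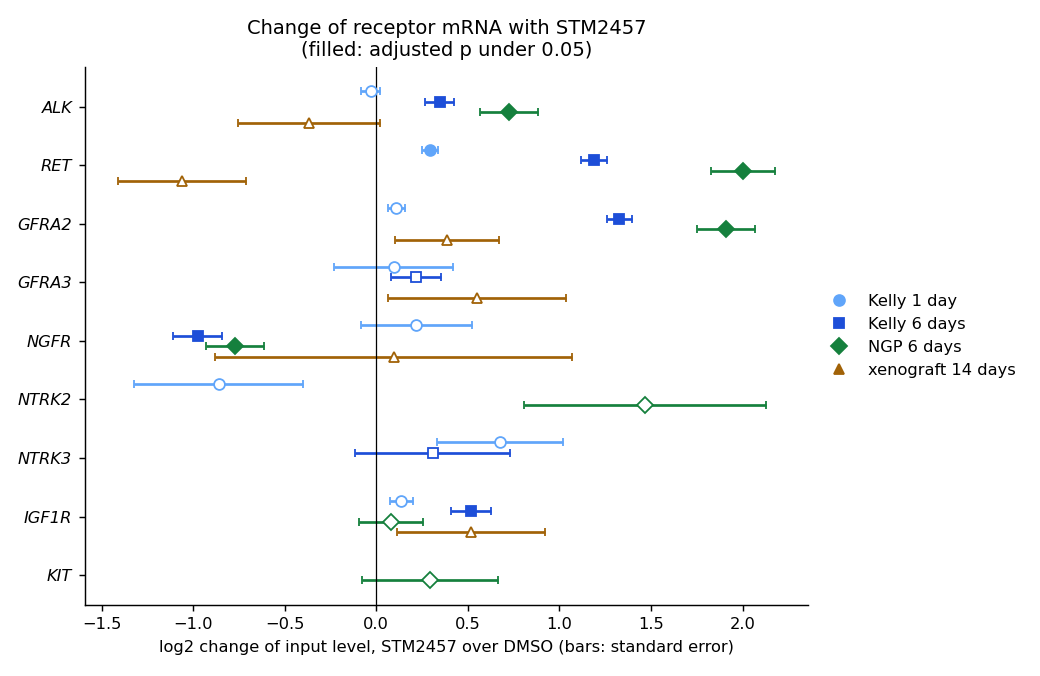
Log2 change of input level with STM2457 over DMSO (x axis) per receptor, with 1 marker per experiment and bars of 1 standard error. Filled markers passed an adjusted p of 0.05 in edgeR, and receptors averaging under 10 counts in a group are left out. RET and GFRA2 reach 1.19 to 2.00 log2 in the 6 day cultures, and RET lies at -1.06 log2 in the xenograft.

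RET was depleted in the m6A pulldown of the 3 culture experiments. RIP over input, the CPM of a RIP library divided by the mean input CPM of its group, is a relative measure, since spike-in RNAs were not analysed here. RET in DMSO read 0.210, 0.214 and 0.244 in Kelly at 1 day, 0.196, 0.0845 and 0.234 in Kelly at 6 days, and 0.354, 0.363 and 0.429 in NGP. All of these RIP libraries held less RET than input. The log2 ratios in the fits were -2.11 (SE 0.136, edgeR adjusted p = 1.41e-08), -2.58 (SE 0.382, edgeR adjusted p = 0.000100) and -1.48 (SE 0.198, edgeR adjusted p = 1.36e-06). In the xenograft RET read 0.197 and 0.0973 in vehicle, at -2.77 log2 (SE 1.12, edgeR adjusted p = 0.176). That depletion was called by DESeq2 (-2.91 log2).

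GFRA2, by contrast, was enriched in the m6A fraction of Kelly. It read 3.39, 3.18 and 3.38 in DMSO at 1 day and 7.42, 6.54 and 6.42 at 6 days. The log2 ratios were 1.79 (SE 0.0960, edgeR adjusted p = 2.21e-09) and 2.72 (SE 0.195, edgeR adjusted p = 2.51e-07). In NGP it read 2.19, 1.21 and 1.29, a smaller ratio of 0.54 log2 (SE 0.203, edgeR adjusted p = 0.0283) that fell to 0.24 log2 and was not called without DMSO replicate 1. In the xenograft vehicle group GFRA2 read 4.04 and 6.12, at 2.39 log2 (SE 0.543, edgeR adjusted p = 0.0462), a call that was lost with RLE size factors (2.25 log2) and without either vehicle replicate (2.83 and 1.92 log2).

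ALK was enriched in Kelly, while in NGP it was called lower in RIP than in input by less than 2-fold. It read 2.23, 2.22 and 2.09 in Kelly at 1 day and 2.42, 2.24 and 3.22 at 6 days in DMSO, at 1.18 log2 (SE 0.0683, edgeR adjusted p = 4.60e-09) and 1.35 log2 (SE 0.180, edgeR adjusted p = 4.02e-05). In NGP it read 1.06, 0.665 and 0.507, at -0.53 log2 (SE 0.210, edgeR adjusted p = 0.0363), a call that was lost without NGP DMSO replicate 2 or 3 or STM2457 replicate 1 or 3. NGP DMSO replicate 1 gave the highest ratio of its group for ALK, GFRA2, NGFR and IGF1R. In the xenograft vehicle group ALK read 1.496 and 2.49 (1.05 log2, SE 0.646, edgeR adjusted p = 0.372).

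IGF1R read 1.90, 1.93 and 1.89 in Kelly at 1 day and 2.12, 2.83 and 2.53 at 6 days in DMSO, at 0.99 log2 (SE 0.105, edgeR adjusted p = 2.13e-06) and 1.27 log2 (SE 0.209, edgeR adjusted p = 0.000226). In NGP it read 1.72, 0.947 and 1.01 and was not called (0.19 log2, edgeR adjusted p = 0.442). NGFR read 5.58, 5.44 and 4.48 in Kelly at 6 days (2.33 log2, SE 0.277, edgeR adjusted p = 1.61e-05) and 2.12, 1.04 and 0.790 in NGP (0.28 log2, edgeR adjusted p = 0.339). The xenograft vehicle group held NGFR at 9.05 and 6.45 and was not called (2.96 log2, SE 1.23, edgeR adjusted p = 0.183). At 1 day in Kelly NGFR was called enriched at 1.66 log2 (SE 0.543, edgeR adjusted p = 0.0157) from 30 to 43 input counts per library, and this call was lost without any one of the 3 DMSO replicates and with a replicate block (1.66 log2). NTRK3 was called enriched there too, at 1.67 log2 (SE 0.592, edgeR adjusted p = 0.0237), from 20 to 27 input counts, and was not called without DMSO replicate 1 (1.62 log2) or 2 (1.48 log2) or with a replicate block (1.57 log2).

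GFRA3 had no RIP counts in Kelly at 1 day in DMSO against 35 to 40 input counts per library, which places it at least 14.4-fold lower in RIP than in input against a floor of 3 counts per library. At 6 days its RIP counts were 54, 27 and 0 against 134 to 165 in input, and the ratio of -2.33 log2 (SE 1.06) was not called by edgeR (adjusted p = 0.0779) and was called by DESeq2 (-2.51 log2). NTRK2 had 0 RIP counts in Kelly at 6 days, from 7 to 19 input counts. KIT read 0.761, 1.45 and 1.07 in NGP DMSO (0.03 log2, SE 0.369).

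Among receptors tested, 7 of 8 were called enriched or depleted in Kelly at 1 day, 5 higher and 2 lower in RIP, beside 67.6% of all genes tested, of which 33.3% higher and 34.3% lower. At 6 days 5 of 7 were called, 4 higher and 1 lower, beside 58.0%, of which 28.8% higher and 29.2% lower. The count in NGP was 3 of 8, 1 higher and 2 lower, beside 55.5%, of which 29.0% higher and 26.5% lower. In the xenograft the count was 1 of 7, beside 3.75%, of which 1.61% higher and 2.15% lower. Enrichment of at least 2-fold was called for 26.3% of all genes tested in Kelly at 1 day, 25.8% at 6 days and 20.9% in NGP, and depletion of at least 2-fold for 29.1%, 27.3% and 19.0%. At 6 days ALK, GFRA2, NGFR and IGF1R belonged to the first class and RET to the second.

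**Figure D3:**
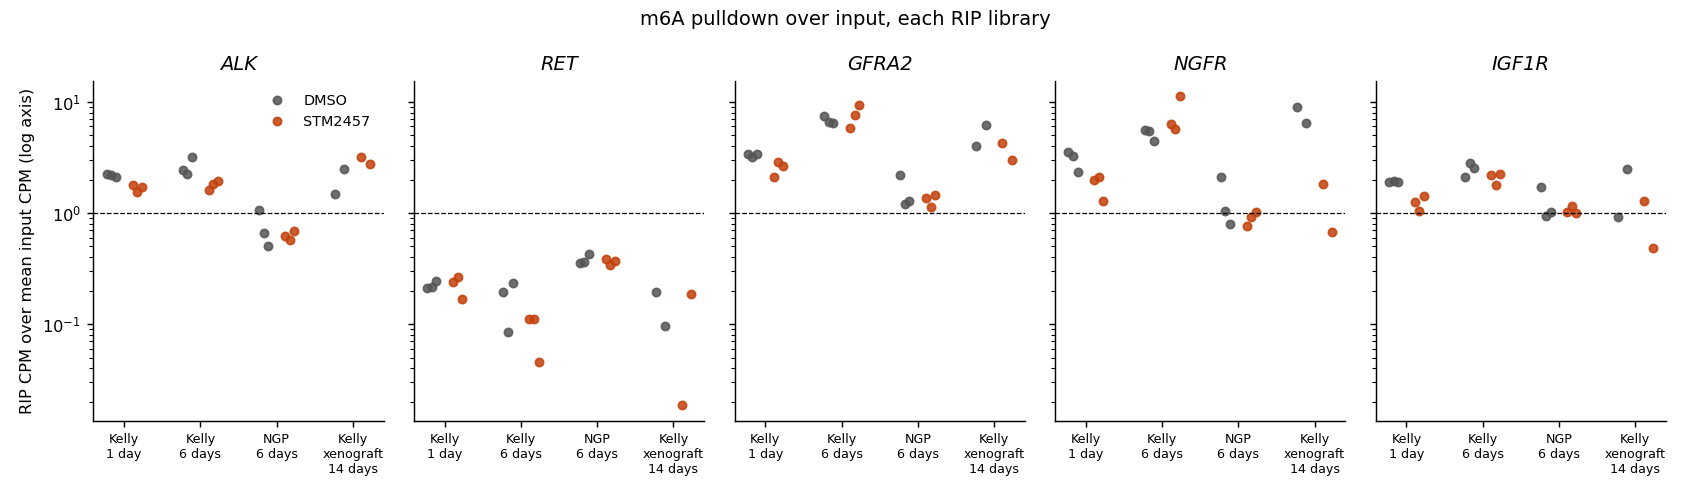
RIP CPM over the mean input CPM of the group (log axis) for 5 receptors by experiment, with 1 point per RIP library, DMSO or vehicle in grey and STM2457 in orange. The dashed line marks equal levels in RIP and input. RET lies below the line in every library, GFRA2 lies above it, and ALK lies above it in Kelly and mostly below it in NGP.

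The difference in DMSO enrichment between Kelly and NGP at 6 days was tested directly. Of 9 receptors tested, 5 differed, 4 more and 1 less enriched in Kelly, beside 46.1% of all genes tested, of which 22.2% more and 23.9% less. GFRA2 was more enriched in Kelly by 2.36 log2 (SE 0.276, edgeR adjusted p = 1.55e-05), NGFR by 2.22 log2 (SE 0.376, edgeR adjusted p = 0.000241) and ALK by 2.06 log2 (SE 0.327, edgeR adjusted p = 0.000147). IGF1R differed by 1.25 log2 (SE 0.312, edgeR adjusted p = 0.00413). The last call was NTRK2, which had 0 RIP counts in Kelly and 31 to 61 in NGP. RET lay at -0.93 log2 (SE 0.435) and was not called (edgeR adjusted p = 0.0956), and passed the threshold without Kelly 6 day DMSO replicate 3 (-1.31 log2).

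Only 1 receptor, IGF1R in Kelly at 1 day, was called for a change of relative enrichment with STM2457 in the main fits. In Kelly at 1 day IGF1R fell from 1.90, 1.93 and 1.89 in DMSO to 1.26, 1.04 and 1.42 in STM2457, a change of -0.53 log2 (SE 0.148, edgeR adjusted p = 0.0274). It was the only one of 8 receptors tested to be called, beside 17.2% of all genes tested, 9.53% higher and 7.62% lower. The call was lost with RLE size factors (-0.44 log2), with DESeq2 (-0.44 log2), without the low-count filter (-0.40 log2) and with a replicate block (-0.54 log2). It was also lost without the input and RIP of any 1 of DMSO replicates 1 to 3 or STM2457 replicates 1 and 2 (-0.56 to -0.38 log2). ALK did not reach the threshold, at 2.09 to 2.23 in DMSO and 1.55 to 1.77 in STM2457 (-0.28 log2, SE 0.0955, edgeR adjusted p = 0.0618). GFRA2 read 2.11, 2.88 and 2.66 with STM2457 at 1 day (-0.28 log2, edgeR adjusted p = 0.170) and was called without STM2457 replicate 2 (-0.40 log2). RET read 0.240, 0.265 and 0.170 with STM2457, overlapping its DMSO values (0.11 log2, edgeR adjusted p = 0.774).

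At 6 days in Kelly 0 of 7 receptors tested were called, beside 2.06% of all genes tested, 1.26% higher and 0.803% lower. GFRA2 read 5.82, 7.58 and 9.34 with STM2457 (0.53 log2, SE 0.259, edgeR adjusted p = 0.337), NGFR 6.35, 5.72 and 11.2 (0.95 log2, SE 0.376, edgeR adjusted p = 0.230) and ALK 1.61, 1.81 and 1.93 (-0.19 log2, SE 0.250, edgeR adjusted p = 0.783). RET read 0.111, 0.110 and 0.0454 (-0.61 log2, SE 0.511, edgeR adjusted p = 0.632), so the mRNA that more than doubled in input stayed under its input level in RIP. The unadjusted p was under 0.05 for NGFR alone of these 7, and DESeq2 called 0 of them. In NGP 0 of 8 receptors and 0% of all genes tested were called by edgeR, with 764 genes at an unadjusted p under 0.05 and 2 genes called by DESeq2. RET read 0.384, 0.339 and 0.367 there with STM2457, as in DMSO (0.02 log2, SE 0.268). In the xenograft 0 of 7 receptors and 0% of genes were called by edgeR, with 809 genes at an unadjusted p under 0.05 and 148 called by DESeq2. NGFR there read 9.05 and 6.45 in vehicle and 1.82 and 0.678 in STM2457 (-2.51 log2, SE 1.65).

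These changes in enrichment are relative to the other mRNAs of the library. When the 13 mitochondrial mRNAs were taken as the reference, the median change of all genes was -1.46 in place of -0.03 log2 in Kelly at 1 day and -2.20 in place of 0.20 log2 at 6 days. On that scale 6 of 8 receptors tested were called at 1 day, beside 8336 of all 13669 genes tested. At 6 days 3 of 7 were called, beside 3938 of 13324. All these receptor calls were lower, with ALK at -1.72 and GFRA2 at -1.73 log2 at 1 day. At 6 days RET was at -3.42 and ALK at -2.82 log2. RET at 1 day changed sign from 0.11 to -1.33 log2. Of the genes called, 0.156% in place of 55.6% were then higher at 1 day, and 0.229% in place of 61.1% at 6 days. With RLE size factors that share was 66.0% at 1 day.

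Sequence features of the receptor mRNAs were set beside these ratios as a description. RET and ALK, on opposite sides in Kelly, held similar densities of GGACT, at 1.25 and 1.28 matches per kb of mRNA, where the median of all genes tested was 0.933. GFRA2 held 2.20 matches per kb, NGFR 1.47 and IGF1R 0.736. ALK has 29 exons, RET 20, IGF1R 21, GFRA2 9 and NGFR 6, and the median was 6 exons for genes enriched at least 2-fold in Kelly at 6 days and 11 for genes depleted at least 2-fold. NGFR held 0 matches in its coding exons and 5 after the stop codon, ALK 6 in coding exons and 0 after the stop codon, and RET 4 and 3. GFRA3, low in RIP, held 2.52 matches per kb, above 96.4% of all genes tested. Across 13062 genes the Spearman correlation of the log2 ratio in Kelly at 6 days was 0.0928 with the density of GGACT and -0.278 with the number of exons, given as a description of genes that share these libraries.

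The genes that supply and relay signals to these receptors were taken from lists drawn up with earlier results known. Of the ligands, IGF2 was abundant and fell with STM2457, from 337 ± 7.76 to 147 ± 2.71 CPM in Kelly at 6 days (-1.31 log2, edgeR adjusted p = 3.41e-10) and by -0.78 log2 in NGP (edgeR adjusted p = 0.0178). In NGP this call was lost without DMSO replicate 3 or STM2457 replicate 1 or 3 (-0.78 to -0.56 log2). IGF1R thus rose in the Kelly libraries in which IGF2 fell, while IGF1 was at 0.0522 CPM or less there. GDNF was at 2.52 ± 0.999 CPM in Kelly and at 0 in NGP, neurturin (NRTN) at 0.329 and 0.856 CPM, and the ALK ligand ALKAL2 at 0.108 and 0.519 CPM in DMSO at 6 days. BDNF was at 11.7 ± 1.51 CPM in Kelly and 9.96 ± 3.77 CPM in NGP, and KITLG at 7.06 to 15.02 CPM in NGP, all in DMSO at 6 days.

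Of 12 genes of the IGF axis, 3 rose and 3 fell among 10 tested in Kelly at 6 days, and 2 rose and 2 fell among 8 tested in NGP, where 26.6% and 4.23% of all genes tested were called. IGFBP3, which binds IGFs outside the cell, rose by 1.42 log2 in Kelly (edgeR adjusted p = 9.63e-05) and 2.92 log2 in NGP (edgeR adjusted p = 3.79e-10). IGFBP5 rose in Kelly at 6 days by 1.34 log2 (edgeR adjusted p = 4.40e-09) and fell in NGP, at -0.79 log2 (edgeR adjusted p = 0.00341). IGFBP1, another IGF binding protein, fell in Kelly at 6 days, at -1.69 log2 (edgeR adjusted p = 0.0219), a call that was lost without the low-count filter, with all inputs in 1 fit and without DMSO replicate 2 or 3 or STM2457 replicate 2 (-1.73 to -1.34 log2). The median of the list was 0.02 log2 in Kelly at 6 days and -0.09 log2 in NGP, beside 0.00 and 0.01 log2 for all genes tested.

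Among other receptors, GFRA1, the co-receptor of GDNF, rose by 0.67 log2 in Kelly at 6 days (edgeR adjusted p = 0.000612), as did NCAM1, an alternative GDNF receptor, by 0.61 log2 (edgeR adjusted p = 3.45e-06). GDF15, a distant ligand that signals through RET in the brain, changed by -1.80 log2 (edgeR adjusted p = 0.000641). Thus 2 of 6 GDNF family genes tested were higher and 1 lower, beside 11.9% and 14.7% of all genes tested. INSRR, a relative of IGF1R, rose by 0.79 log2 in Kelly at 6 days (edgeR adjusted p = 0.00142) and 1.11 log2 in NGP (edgeR adjusted p = 0.00199), and LTK, the closest relative of ALK, by 0.87 log2 in Kelly (edgeR adjusted p = 0.0106). With all inputs in 1 fit the Kelly calls of GDF15 (-1.61 log2), INSRR (0.83 log2) and LTK (0.92 log2) were lost, as was that of INSRR in NGP without STM2457 replicate 1 (0.95 log2).

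Of 25 adaptor and relay genes, 6 rose and 1 fell among 23 tested in Kelly at 6 days, and 3 rose and 0 fell among 23 tested in NGP, beside 26.6% of all genes called either way in Kelly and 4.23% in NGP. SHC1, the adaptor that links these receptors to RAS, rose by 0.32 log2 at 1 day (edgeR adjusted p = 4.89e-05), 1.01 log2 at 6 days (edgeR adjusted p = 1.90e-08) and 0.81 log2 in NGP (edgeR adjusted p = 0.00430). DOK4, an adaptor that binds RET, rose by 0.61 log2 in Kelly at 6 days (edgeR adjusted p = 6.36e-06) and 0.83 log2 in NGP (edgeR adjusted p = 0.00148). The median of the list was 0.15 log2 in Kelly at 6 days and 0.13 log2 in NGP. The SHC1 call was lost at 1 day with all inputs in 1 fit (0.31 log2) and in NGP without STM2457 replicate 1 (0.78 log2).

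Of the 16 ERK feedback and response genes, 15 were tested in Kelly at 6 days. Of these 0 rose and 7 fell, beside 11.9% of all genes tested higher and 14.7% lower, with a median of -0.33 log2 beside 0.00 log2 for all genes tested. PHLDA1 changed by -1.42 log2 (edgeR adjusted p = 1.36e-07), DUSP5, an ERK phosphatase, by -1.22 log2 (edgeR adjusted p = 0.0444) and SPRY4, an inhibitor of receptor signalling, by -1.08 log2 (edgeR adjusted p = 0.00241). The count of 7 was 4 with DESeq2 or a replicate block, 1 when all inputs were fitted together, and 3 without DMSO replicate 1, 2 or 3 or without STM2457 replicate 1 or 2. DUSP5 was not called in any of these alternatives, and SPRY4 was not called with all inputs in 1 fit (-1.06 log2). In NGP 1 rose, ETV1 by 1.16 log2 (edgeR adjusted p = 0.0211), and 1 fell, PHLDA1 at -1.07 log2 (edgeR adjusted p = 0.000153), among 14 tested, with a median of 0.10 log2. Of all genes tested there, 2.07% were called higher and 2.16% lower. The ETV1 call was lost without DMSO replicate 3 or STM2457 replicate 1 or 2. Of 5 ALK ligands and their partners, 3 were tested in Kelly at 6 days and 2 in NGP. In Kelly 1 was called, the heparin-binding factor MDK at -0.23 log2 (edgeR adjusted p = 0.0107), beside 26.6% of all genes tested. In NGP 0 were called, beside 4.23%. In the xenograft 0 genes of any of these lists were called by edgeR.

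**Figure D4:**
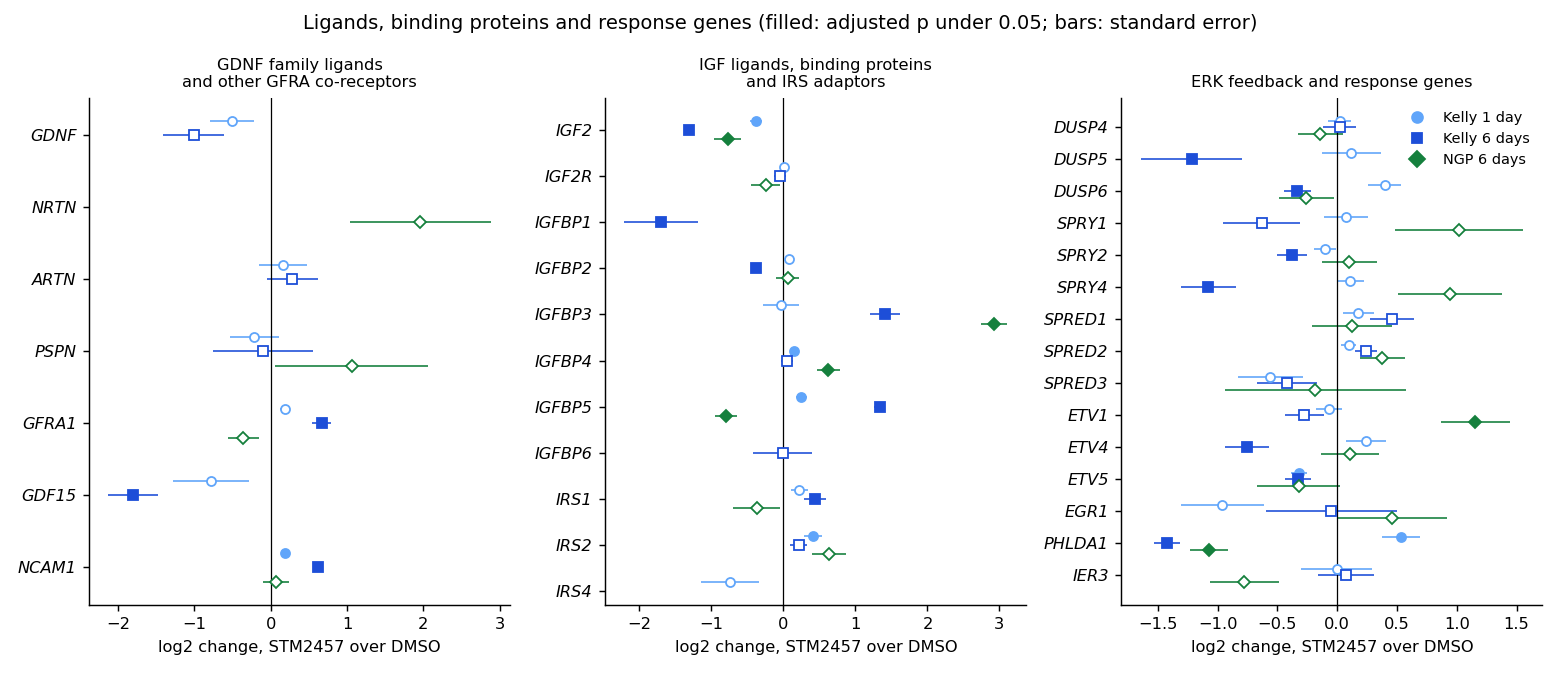
Log2 change of input level with STM2457 (x axis) for genes of 3 pathway lists in the 3 culture experiments, with bars of 1 standard error. Filled markers passed an adjusted p of 0.05 in edgeR. IGF2 lies to the left in all 3 experiments, IGFBP3 to the right in both 6 day cultures, and 7 ERK response genes are filled to the left in Kelly at 6 days.

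The genes whose input level followed each receptor most closely were found by Pearson correlation of log2(CPM + 1) over 22 input libraries among 10936 genes. For RET they were GNAO1 (r = 0.960) and SCARA3 (r = 0.958), for GFRA2 GPRIN1 (r = 0.933) and C14orf132 (r = 0.899), and for ALK ACBD5 (r = 0.971). For NGFR they were KRT10 (r = 0.972) and PSRC1 (r = 0.970), for IGF1R TULP4 (r = 0.967) and KMT2E (r = 0.956), for GFRA3 CTAG2 (r = 0.987) and SYT5 (r = 0.983), and for KIT NTN4 (r = 0.995) and DDX3Y (r = 0.994). RET correlated with GFRA2 at r = 0.847 and with ALK at r = 0.826 over the same libraries. The libraries share cell line, experiment and depth, so these values describe the pattern and carry no p.

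The receptor genes lie apart in the genome, and none shares exon bases with another gene of the tables. On GRCh38 the gene models used for counting span 29192774 to 29921586 on chromosome 2 (ALK, minus strand), 43077064 to 43130351 on chromosome 10 (RET, plus strand), 84668551 to 85027070 on chromosome 9 (NTRK2, plus strand) and 87859751 to 88256768 on chromosome 15 (NTRK3, minus strand). NGFR spans 49495293 to 49515008 on chromosome 17 (plus strand), GFRA3 138252380 to 138274621 on chromosome 5 (minus strand), IGF1R 98648539 to 98964530 on chromosome 15 (plus strand) and KIT 54657918 to 54740715 on chromosome 4 (plus strand).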

How the data were processed

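Titles put the 44 libraries into groups of cell line or tumour, time, treatment and assay. The authors deposited raw fragment counts per gene, 1 table per library. Per the submitters' processing notes, reads were handled with FastQC 0.11.5, Trimmomatic 0.36, HISAT2 2.1.0, featureCounts (Subread 1.5.3) and deepTools 2.0. Per the file headers, paired fragments were counted over exons of GENCODE 33 protein-coding genes by gene name, with no strand option named, so antisense overlaps cannot be told apart. No replicate pair of 40 was as close as sampling noise (lowest chi-square over degrees of freedom 2.73).

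Fits used edgeR 4.0.16 in R 4.3.3 (quasi-likelihood, TMM, filterByExpr with minimum count 10 and minimum total 15, Benjamini-Hochberg at 0.05, two-sided), 1 per experiment over all genes, and were tested on simulated data. Enrichment was RIP over input, and its change and the differences between experiments were interaction terms. GGACT was counted in GENCODE 44 canonical transcripts, and 98.0% of genes matched. Alternatives tried were DESeq2 1.42.0, RLE size factors, no filter, a replicate block, all inputs in 1 fit, a mitochondrial reference and each replicate left out. Where a fit held input and RIP, the same-numbered input and RIP libraries were left out together. Where an arm kept 1 library, it was assumed to vary like the other groups. The members and lists were chosen with earlier results of these data known. Named list genes are up to 3 with the largest called change per list and experiment, and for each receptor at 10 CPM or more the 2 most correlated genes. Floors of 3 counts cover counting error only. Same-numbered libraries did not deviate together (correlations of -0.369 to 0.284), so the numbers were not taken as pairs in the main fits. No value is given for log2 where a group averaged under 10 counts. Spike-in RNAs were not analysed here. Some genes that these rules name are not reported here.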

Additional observations from a re-analysis of the deposited data

Results flagged for a closer look

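The response to STM2457 in Kelly differed between 6 days and 1 day for 5 receptors by the interaction test: GFRA2 by 1.24 log2, RET by 0.91 log2, ALK by 0.39 log2, IGF1R by 0.40 log2 and NGFR by -1.19 log2. All 5 are differences of input change, positive where the change was more upward at 6 days. Of all genes tested 8.41% differed, 3.67% upward and 4.73% downward.

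The enrichment of 5 of 9 receptors tested in DMSO differed between Kelly and NGP at 6 days by the same kind of test. Of all genes tested 46.1% differed, 22.2% more and 23.9% less enriched in Kelly. Higher in Kelly were GFRA2 by 2.36 log2, NGFR by 2.22 log2, ALK by 2.06 log2 and IGF1R by 1.25 log2. NTRK2, which had too few counts for a printed log2, was less enriched in Kelly.

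For ALK every STM2457 input was above every control in Kelly at 6 days and in NGP, and below every control in the xenograft (-0.37 log2). Of all genes tested, 29.7% had all treated inputs higher in 6 day Kelly cultures, 15.1% in those of NGP and 20.8% in 1 day Kelly cultures. In the xenograft 27.7% had all treated inputs lower. For RET treated inputs were all higher in Kelly at 1 day, Kelly at 6 days and NGP, and all lower in the xenograft (-1.06 log2). These opposite directions were not tested as a difference, and the xenograft rests on 2 libraries per group.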

How the results depend on the processing

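Of 102 receptor values with a log2, 48 kept their sign and their side of the threshold under every alternative run, and so did 1003 of 1113 single alternatives. The rises of RET and GFRA2 and the fall of NGFR in both 6 day cultures were among the stable ones, as was the depletion of RET in RIP in Kelly and NGP.

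Counts of called receptors moved as follows. With all inputs in 1 fit, 0 in place of 1 were called at 1 day and 1 in place of 0 in the xenograft input change, where leaving out a library gave 0 to 1. In xenograft DMSO enrichment the count of 1 became 0 with RLE size factors and 3 with DESeq2. In the enrichment change of Kelly at 1 day the count of 1 became 0 with RLE size factors, DESeq2, no filter or the replicate block. It became 6 with the mitochondrial reference and 0 to 1 with the input and RIP of a replicate left out. At 6 days the count of 0 became 3 with the mitochondrial reference. In the Kelly and NGP response difference the count of 0 became 1 with RLE size factors, no filter or the replicate block, 2 with DESeq2 and 0 to 2 with a library left out.

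Signs turned only for values that were not called. With the replicate block, xenograft NGFR input turned to -0.50, NTRK2 enrichment at 1 day to -0.733, NTRK3 enrichment at 6 days in Kelly to -0.61 and its change to 0.15, and the RET enrichment change in NGP to -0.00620. The numbers do not pair the libraries, and the block moved the genes called of all in the input change from 520 to 870 in NGP. With all inputs in 1 fit xenograft NGFR turned to -0.11. Without the filter the RET enrichment change in NGP was -0.0191. With the mitochondrial reference the enrichment changes turned to -1.33 (RET) and -1.37 (NTRK3) at 1 day, -1.25 (NGFR), -1.87 (GFRA2), -0.49 (GFRA3) and -2.37 (IGF1R) at 6 days, -0.20 (RET) in NGP and -0.00576 (ALK) in the xenograft.

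Leaving out a replicate, with its input and RIP together in the enrichment fits, gave these log2 ranges that cross 0. For input: GFRA3 at 1 day -0.19 to 0.32, KIT in NGP -0.0105 to 0.63 and xenograft NGFR -2.19 to 0.95. For DMSO enrichment: NTRK2 at 1 day -0.84 to 0.44, NTRK3 at 6 days -0.90 to 1.37, in NGP NGFR -0.28 to 0.52, IGF1R -0.12 to 0.43, NTRK2 -0.20 to 0.65 and KIT -0.42 to 0.47, and xenograft IGF1R -0.26 to 1.57. For the enrichment change: at 1 day RET -0.0572 to 0.31 and NTRK3 -0.0711 to 0.33, at 6 days NTRK3 -1.02 to 1.19, GFRA3 -0.0532 to 1.63 and IGF1R -0.32 to 0.23. In NGP the ranges were RET -0.19 to 0.13, ALK -0.28 to 0.0297, NGFR -0.695 to 0.11, GFRA2 -0.31 to 0.15 and IGF1R -0.35 to 0.20. In the xenograft they were RET -2.66 to 0.12, GFRA2 -1.21 to 0.18, IGF1R -2.42 to 0.21 and NGFR -4.59 to 0.45. For the Kelly response difference: GFRA3 -0.0889 to 0.42 and NTRK3 -0.59 to 0.26. The cause of these turns was not tested.

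Depth limits NTRK2, NTRK3 and, in Kelly, NGFR and GFRA3 at 1 day, which rest on few counts, and the xenograft, with 2 libraries per group. Genes called of all in the xenograft input change went from 0 to 77 with DESeq2, 100 without the filter, 65 with the block and 2552 with all inputs in 1 fit. In NGP they went from 520 to 1266 with all inputs in 1 fit and to 128 without STM2457 replicate 1, and that fit took Kelly at 1 day from 2315 to 26 and Kelly at 6 days from 3396 to 791. Genes called of all in the enrichment change became 8336 in place of 2345 at 1 day and 3938 in place of 275 at 6 days with the mitochondrial reference, and at 6 days 905 with DESeq2 and 0 with the block.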
